A study of Arabidopsis thaliana with 2 samples.

Results

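The 10 photoreceptor genes described here are the phytochromes PHYA to PHYE, the cryptochromes CRY1 and CRY2, the phototropins PHOT1 and PHOT2, and the UV-B receptor UVR8 of Arabidopsis thaliana. In the order given, their loci are AT1G09570, AT2G18790, AT5G35840, AT4G16250, AT4G18130, AT4G08920, AT1G04400, AT3G45780, AT5G58140 and AT5G63860. They were taken by name out of 23667 loci with reads, not by their values, though earlier results of these data were known. All 10 had reads in both libraries. The RNA came from whole seedlings aged 12 days, grown at 20 °C in long days at a photon flux of 90 µmol per m2 and s, without treatment. One library was from seedlings labelled FMO5-OE T1 in the Col-0 background, and one from Col-0 wild type. FMO5-OE was taken to mean that FMO GS-OX5 (AT1G12140) is overexpressed, a flavin-containing monooxygenase that S-oxygenates glucosinolates. The sources used here do not give the promoter behind the overexpression, the meaning of T1, the number of seedlings pooled or the hour of collection.

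Phytochromes carry a bilin chromophore and switch between a red-absorbing and a far-red-absorbing form. The active form enters the nucleus, where it leads to the loss of PIF transcription factors and holds back the COP1/SPA ubiquitin ligase, so that factors such as HY5 can build up. PHYA is light-labile and senses far-red and very weak light, while PHYB is the main red light receptor of green seedlings and acts in shade avoidance together with PHYD and PHYE. Cryptochromes are flavin-binding blue light receptors of the nucleus and cytoplasm that also restrain COP1. Phototropins are plasma membrane kinases with a pair of flavin-binding LOV domains, and they steer phototropism, chloroplast movement and stomatal opening. UVR8 senses UV-B through its own tryptophans and binds COP1 as a monomer.

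The chromophore sites show how alike the family members are and why short reads could still tell them apart. The 5 phytochrome stretches below are coding DNA of 63 bases from the TAIR10.1 genome, read 5′ to 3′ on the coding strand, with the codon of the chromophore-binding cysteine in capitals. The stretches lie at chr1:3098218-3098280 (minus strand, exon 2) for PHYA and chr2:8141117-8141179 (plus strand) for PHYB. Those of PHYC, PHYD and PHYE lie at chr5:14008970-14009032 (plus strand), chr4:9198377-9198439 (minus strand) and chr4:10044953-10045015 (minus strand), and these 3 and that of PHYB are in exon 1.
PHYA: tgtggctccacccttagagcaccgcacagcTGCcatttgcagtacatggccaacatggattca
PHYB: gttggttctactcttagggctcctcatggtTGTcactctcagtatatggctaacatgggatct
PHYC: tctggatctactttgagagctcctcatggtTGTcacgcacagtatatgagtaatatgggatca
PHYD: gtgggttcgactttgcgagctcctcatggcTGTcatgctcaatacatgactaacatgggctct
PHYE: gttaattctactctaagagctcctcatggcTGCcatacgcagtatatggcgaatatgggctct
PHYB and PHYD differed at 13 of these 63 bases, PHYB and PHYE at 12, and PHYA and PHYB at 20. The longest exact stretch that any 2 of the 10 coding sequences share was 43 bases, between PHYB and PHYD, at chr2:8142024-8142066 on the plus strand of PHYB. It is shown because it is shorter than the 49-base reads:
PHYB and PHYD: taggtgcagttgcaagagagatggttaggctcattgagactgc
No read inside the coding sequence could thus match 2 of these genes exactly.

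The phototropin sites were as distinct. The codon of the cysteine that bonds the flavin in the second LOV domain is in capitals below, in coding DNA of TAIR10.1 on the plus strand, interrupted by an intron in both genes. The enclosing spans are chr3:16821159-16821309 for PHOT1 and chr5:23526910-23527101 for PHOT2, and the codon lies in exon 7 of each.
PHOT1: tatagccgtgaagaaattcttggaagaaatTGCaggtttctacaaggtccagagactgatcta
PHOT2: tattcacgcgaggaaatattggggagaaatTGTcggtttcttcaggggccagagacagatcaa
They differed at 16 of 63 bases, and the longest exact stretch the 2 coding sequences share was 35 bases. For UVR8 the codon of tryptophan 285, a residue that absorbs UV-B, is in capitals, within chr5:25556110-25556377 (minus strand, exon 8), again with an intron in the span.
UVR8: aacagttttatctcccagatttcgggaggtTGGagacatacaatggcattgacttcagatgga
CRY1 and CRY2 share no more than 17 bases in a row.

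The FMO5-OE T1 library held 12.21 M counted reads and the Col-0 library 11.56 M. The overexpressed gene itself checked the labels: FMO GS-OX5 had 1379 reads in FMO5-OE T1 and 28 in Col-0, a CPM ratio of 43.6 (95% counting interval 30.1 to 65.9). CPM are read counts put on a common library size by TMM scaling, and every ratio is FMO5-OE T1 over Col-0. With 1 library per genotype there is no test and no p-value. The intervals are exact Clopper-Pearson intervals that cover counting error only, and genotype cannot be told apart from any other difference between the seedling samples. All 7 green tissue markers and all 8 root markers had reads, as the label of whole seedlings implies.

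The counts fell into 2 classes, set by how much of each gene the reads covered. PHYB, PHYC, PHYD, PHYE, CRY1 and UVR8 have 1 listed transcript model each, and reads covered 82.19% to 99.42% of it in FMO5-OE T1 and 82.66% to 98.7% in Col-0. In PHYA, CRY2, PHOT1 and PHOT2 reads covered at most 12.03% of any listed model in FMO5-OE T1 and at most 14.29% in Col-0. These 4 loci have between 2 and 7 models in the TAIR10.1 annotation, and the deposited column counts unique reads per model. The 38 reads of PHYA in FMO5-OE T1 and the 24 in Col-0 lay on 178 and 173 bases of a model of 3829 bases. PHYB also has 2 models in the annotation but was covered over nearly its whole length; the sources used here do not give which models the authors' annotation held. The low counts of PHYA, CRY2, PHOT1 and PHOT2 thus describe small parts of these genes, and their levels cannot be set beside those of the other 6.

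**Figure D1:**
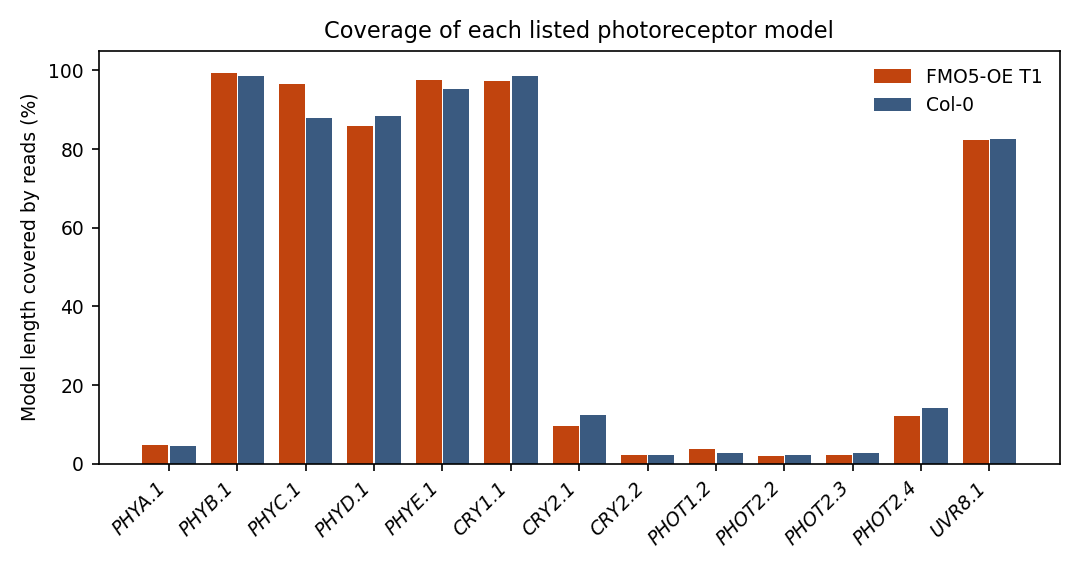
Percent of the length of each listed photoreceptor model (x axis, gene and model number) that reads covered in the FMO5-OE T1 library and the Col-0 library (bars, 1 library each). Models of PHYB, PHYC, PHYD, PHYE, CRY1 and UVR8 stand above 82%, while those of PHYA, CRY2, PHOT1 and PHOT2 stay under 15% in both libraries.

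The CPM ratios of the 6 genes that reached 5 CPM ran from 0.93 to 1.21. None of these 6 was 2-fold apart on the log2(CPM + 1) scale, against 1.08% of the 13019 nuclear loci at 5 CPM or more, 0.737% on the higher and 0.346% on the lower side. None was 1.5-fold apart either, against 5.64% of those loci, 3.38% higher and 2.26% lower. With shares this small, 0 of 6 does not set the members apart from other nuclear loci. The median log2 ratio of all 10 members was 0.09, with a range of -0.11 to 0.50. That of the 6 was 0.03, with 5 above 0, though PHYB at 0.005 and PHYE at 2.8e-05 were barely so. Over all of those nuclear loci the median was -0.01, with quartiles of -0.17 and 0.16 and 47.8% above 0. The 4 loci of low coverage did not reach 5 CPM in either library. Their ratios ran from 0.91 to 1.60, with intervals too wide to show whether the libraries differed.

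**Figure D2:**
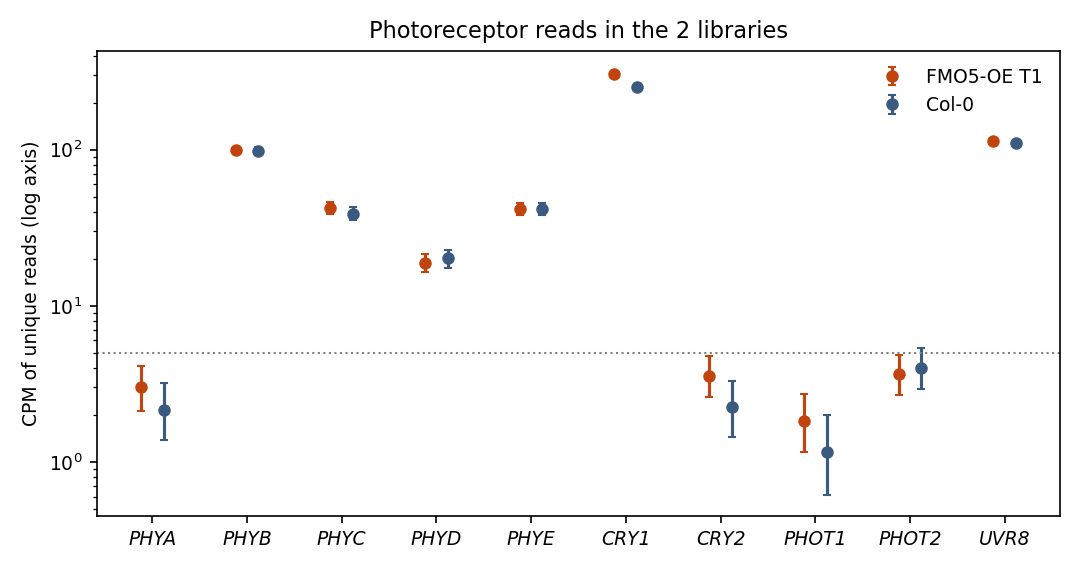
CPM of unique reads (y axis, log scale) for each photoreceptor gene in the FMO5-OE T1 library (left point) and the Col-0 library (right point), with exact 95% Poisson intervals of the count and a dotted line at 5 CPM. CRY1 is highest, at 305 and 253 CPM, and the 4 genes below the line are those whose reads covered small parts of their models.

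CRY1, the cryptochrome that drives de-etiolation under strong blue light, was the one member whose counting interval lay apart from 1. It had 3846 reads in FMO5-OE T1 and 2826 in Col-0, or 305 and 253 CPM. The ratio was 1.21 (1.15 to 1.27), a log2 ratio of 0.27. Intervals lay above 1 for 17.4% of nuclear loci and below 1 for 21% of them, or apart from 1 for 38.4%, and 14.4% had a log2 ratio at least as high as that of CRY1. A ratio of this size was thus common in these libraries. CRY1 lies at chr4:5723651-5727268 on the plus strand, and its model has 4 exons. Its ratio stood above that of PHYB by a factor of 1.20 (1.09 to 1.32) and above that of UVR8 by 1.17 (1.07 to 1.28), comparisons that no scaling of the libraries can move. Against PHYD and PHYE the factors were 1.29 (1.06 to 1.57) and 1.21 (1.05 to 1.38), and against PHYC the interval spanned 1, at 1.10 (0.96 to 1.26). These factors were among 9 pairs chosen after the values had been seen, with no adjustment for their number. With total count CPM the CRY1 ratio was 1.29 (1.23 to 1.35), and the intervals of PHYC (1.17, from 1.03) and UVR8 (1.10, from 1.02) then lay above 1 as well, as did those of 28.4% of nuclear loci.

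CRY2, the light-labile cryptochrome of photoperiodic flowering, had 45 reads in FMO5-OE T1 and 25 in Col-0. The ratio of 1.60 had an interval from 0.96 to 2.71, wide enough to hold the CRY1 ratio. Of these reads 44 in FMO5-OE T1 and 24 in Col-0 were on model 1, and 1 in each library was on model 2. They covered 9.66% of model 1 in FMO5-OE T1 and 12.27% in Col-0. By the annotation, 18.6% of model 1 lies within reach of reads that model 2 does not hold. CRY2 lies at chr1:1185512-1188696 on the minus strand.

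PHYB, the dominant phytochrome of light-grown seedlings, had 1249 reads in FMO5-OE T1 and 1103 in Col-0, or 99 and 98.6 CPM. Its ratio was 1.003 (0.92 to 1.09), so the libraries differed by less than counting error. PHYD, its closest relative, had 237 reads in FMO5-OE T1 and 225 in Col-0, or 18.8 and 20.1 CPM, with a ratio of 0.93 (0.77 to 1.13). PHYE, which acts with PHYB and PHYD in shade avoidance, had 527 and 467 reads in FMO5-OE T1 and Col-0, or 41.8 CPM in both, with a ratio of 1 (0.88 to 1.14). PHYC, which works as a partner of PHYB, had 536 reads in FMO5-OE T1 and 434 in Col-0, or 42.5 and 38.8 CPM, with a ratio of 1.09 (0.96 to 1.24). Reads of PHYC covered 96.6% of its model in FMO5-OE T1 and 87.85% in Col-0. The 4 light-stable phytochromes thus all had intervals that span 1. PHYA, the light-labile phytochrome, had 3.01 CPM in FMO5-OE T1 and 2.15 CPM in Col-0, and its ratio of 1.40 had an interval of 0.82 to 2.45.

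The 5 phytochrome genes lie apart from each other in the genome, except that PHYD and PHYE are both on the minus strand of chromosome 4. PHYA spans chr1:3095160-3100819 (minus), PHYB chr2:8139756-8144461 (plus) and PHYC chr5:14007812-14011848 (plus). PHYD spans chr4:9195247-9199840 and PHYE chr4:10042137-10046346. Of the words of 49 bases in the annotated models of PHYA, PHYB, PHYC and PHYD, 0 occur in transcripts of another locus, and 12 of 3864 do for PHYE, which overlaps AT4G18140. The deposited PHYD model of 3495 bases equals its coding length, so its reads from untranslated parts were not counted.

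UVR8 had 1430 reads in FMO5-OE T1 and 1227 in Col-0, or 113 and 110 CPM. The ratio was 1.03 (0.96 to 1.12). Its model was covered over 82.19% in FMO5-OE T1 and 82.66% in Col-0, the lowest share in FMO5-OE T1 and in Col-0 among the 6 well-covered genes, though its counts were second only to CRY1. The gene spans chr5:25554416-25559499 on the minus strand, has 13 exons and overlaps no other annotated gene.

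The phototropins were measured on few reads. PHOT1, the receptor for weak blue light in phototropism, had 23 reads in FMO5-OE T1 and 13 in Col-0, all on model 2, with a ratio of 1.57 (0.76 to 3.37). PHOT2, which also mediates the chloroplast avoidance response to strong light, had 46 reads in FMO5-OE T1 and 45 in Col-0, with a ratio of 0.91 (0.59 to 1.40). The PHOT1 ratio stood above the PHOT2 ratio by 1.73, with an interval from 0.73 to 4.19, so that no difference between the pair was detectable at this depth. The PHOT2 reads were spread over 3 models. Model 4, which codes for 689 residues against 915 of model 2 in the annotation, took 15 reads in FMO5-OE T1 and 23 in Col-0. That was 32.6% (19.5% to 48.0%) of the PHOT2 reads in FMO5-OE T1 and 51.1% (35.8% to 66.3%) in Col-0, and the intervals overlap. Only unique reads were counted, and the models differ in how much sequence is theirs alone. By the annotation, 430 read start positions of model 4 are in no other transcript, against 73 of model 2 and 47 of model 3. The shares therefore do not measure how much of each transcript was present. Model 2 took 54.3% in FMO5-OE T1 and 35.6% in Col-0, and model 3 took 6 reads in each library. With the model of most reads alone, the log2 ratio of PHOT2 was 0.29, against -0.11 over all models. PHOT2 spans chr5:23523825-23533111 on the plus strand, and AT5G58150 overlaps it on the other strand. Of the words of 49 bases in PHOT2 model 2, 41.9% also occur in another locus, read on either strand, and 0% of those in model 4. PHOT1 spans chr3:16816721-16824210 on the plus strand.

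**Figure D3:**
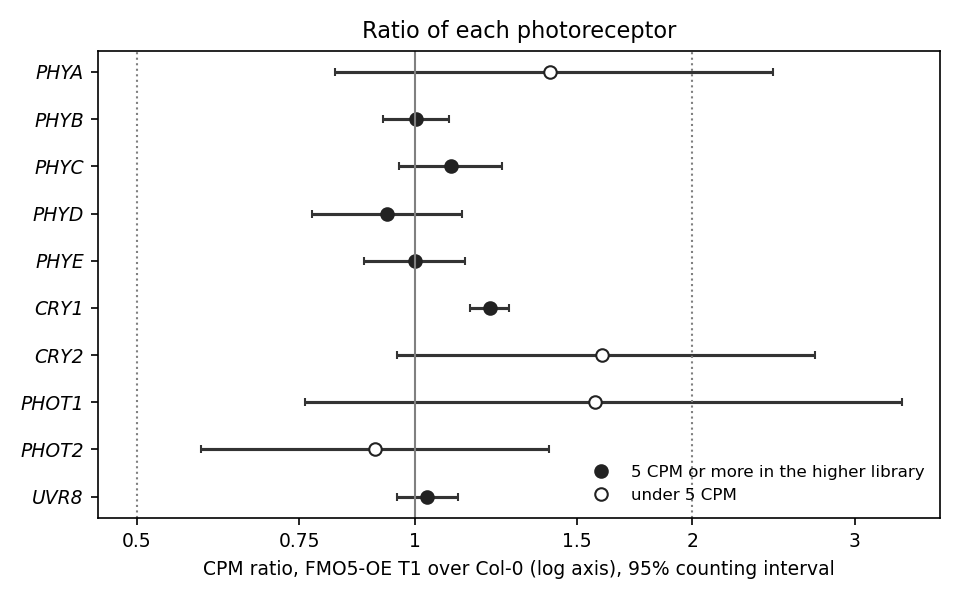
CPM ratio of each photoreceptor gene, FMO5-OE T1 over Col-0 (x axis, log scale), with exact 95% counting intervals and dotted lines at 2-fold; open points mark genes under 5 CPM in both libraries. The CRY1 interval lies to the right of 1, and the other 9 span it.

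Per length of transcript the 6 well-covered genes kept a wide spread of levels. In CPM per kilobase of the longest listed model, CRY1 had 119 in FMO5-OE T1 and 99.1 in Col-0. UVR8 followed with 53.5 in FMO5-OE T1 and 51.8 in Col-0, and PHYB with 24.8 and 24.7 in FMO5-OE T1 and Col-0. PHYC had 11.5 in FMO5-OE T1 and 10.5 in Col-0, PHYE had 11.4 in each library, and PHYD was lowest, with 5.37 in FMO5-OE T1 and 5.76 in Col-0. CRY1 thus stood 22.2 times above PHYD in FMO5-OE T1 and 17.2 times above it in Col-0. The order of PHYC and PHYE differed between the libraries, but their counting intervals overlapped in both. All other neighbours in the order were apart by a factor of at least 1.82 with intervals that did not overlap.

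The genes that work with these receptors were taken from 8 lists of 87 loci, of which 55 reached 5 CPM. The lists, too, were chosen with earlier results of these data known. Together the 55 genes had a median log2 ratio of 0.02, with 30 above 0. Of the 55, 1 was 2-fold apart, which is 1.82% against 1.08% of all nuclear loci, and 6 were 1.5-fold apart, which is 10.9% against 5.64%. These 6 were the shade genes ATHB2 and HFR1 on the higher side, and BBX25, ELIP2, AT3G44450 and AT3G52740 on the lower side.

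Of the 11 genes for the phytochrome chromophore and its nuclear import, 5 reached 5 CPM, with a median of -0.01 and 0 of them 1.5-fold apart. FHY1, the carrier that takes PHYA into the nucleus, had 182 reads in FMO5-OE T1 and 119 in Col-0, with a ratio of 1.36 (1.07 to 1.72). HY1, the heme oxygenase of chromophore synthesis, had a ratio of 1.10 (0.93 to 1.3) and HMR, which acts in phytochrome signalling and plastid transcription, 0.92 (0.84 to 1.01). Only 2 of 7 PIF factors reached 5 CPM: PIF7, a factor of shade and warmth responses, had a ratio of 1.16 (0.84 to 1.60), and UNE10, a PIF relative, had 605 reads in FMO5-OE T1 and 690 in Col-0, a ratio of 0.78 (0.70 to 0.87). Of the 11 measured genes around COP1, 6 lay above 0 and the median was 0.02. COP1 itself had a ratio of 1.15 (1.03 to 1.28). HYH, the close relative of HY5, had a ratio of 0.75 (0.50 to 1.11). BBX25, a B-box protein that works against HY5, had 1064 reads in FMO5-OE T1 and 1506 in Col-0, a ratio of 0.63 (0.58 to 0.68).

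Of 9 loci listed as cryptochrome partners 6 reached 5 CPM, with a median of 0.03. AT3G44450, annotated as an uncharacterized protein, had 93 reads in FMO5-OE T1 and 136 in Col-0, a ratio of 0.61 (0.46 to 0.79). AT3G52740, with the same annotation, had 181 reads in FMO5-OE T1 and 249 in Col-0, a ratio of 0.64 (0.53 to 0.78). The protein kinase AT3G03940 had a ratio of 1.10 (1.02 to 1.20). Of the 15 measured phototropin partners 10 lay above 0 and 0 were 1.5-fold apart, with a median of 0.05. PKS1, a phytochrome kinase substrate that acts in phototropism, had 575 reads in FMO5-OE T1 and 372 in Col-0, a ratio of 1.37 (1.20 to 1.56). WEB1 and CHUP1, proteins of chloroplast movement, had ratios of 1.26 (1.16 to 1.36) and 1.29 (0.88 to 1.91). Counting intervals lay above 1 for 6 of the 15 partners and below 1 for 4. PMI2 and AT1G18810, named after their values were seen, had ratios of 0.81 (0.71 to 0.93) and 0.83 (0.71 to 0.97). AT5G67385 and AT1G64500, also named afterwards, had ratios of 0.86 (0.81 to 0.91) and 0.87 (0.82 to 0.93).

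Of 15 partners and targets of UVR8, 8 reached 5 CPM, with a median of -0.28. Of these 6 lay below 0, against 52.2% of nuclear loci, and WRKY36 and SIG5 among them were near 1, each at 0.96. ELIP2, an early light-inducible protein of the chloroplast, had 63 reads in FMO5-OE T1 and 132 in Col-0, a ratio of 0.42 (0.31 to 0.58). Its relative ELIP1 had 158 reads in FMO5-OE T1 and 203 in Col-0, a ratio of 0.69 (0.56 to 0.85). CHS, the entry enzyme of flavonoid synthesis, had 2382 reads in FMO5-OE T1 and 3068 in Col-0, a ratio of 0.69 (0.65 to 0.73). The negative regulators of UVR8 went apart: RUP1 had a ratio of 1.44 (1.20 to 1.73) and RUP2, named after its value was seen, 0.70 (0.59 to 0.83). CHS and the ELIP genes also respond to visible light, and their values do not describe UVR8 alone. With a minimum of 20 CPM the median was -0.06.

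Shade-responsive genes lay on both sides. Of 6 measured, 3 lay above 0, and the median was 0.06. That median turned on the minimum level: it was 0.20 at 1 CPM and 0.74 at 20 CPM, where ATHB2, HFR1 and XTH15 alone were left. ATHB2, a homeodomain factor that is a standard marker of low red to far-red light, had 420 reads in FMO5-OE T1 and 200 in Col-0, a ratio of 1.86 (1.57 to 2.21). HFR1, a bHLH protein that limits shade growth, had 417 reads in FMO5-OE T1 and 217 in Col-0, a ratio of 1.70 (1.44 to 2.02). XTH15, a wall-modifying enzyme, had a ratio of 0.83 (0.72 to 0.96). Both other flavin-type receptors at 5 CPM were near 1: ZTL, the blue light receptor of the clock, had a ratio of 1.09 (0.78 to 1.53) and CRY3, an organellar cryptochrome, 1.002 (0.86 to 1.17). The remaining 2 genes of that list were under 5 CPM and were named after their values were seen. FKF1, a ZTL relative of photoperiodic flowering, had 3 reads in FMO5-OE T1 and 18 in Col-0, a ratio of 0.15 (0.03 to 0.51). LKP2, the other ZTL relative, lay on the opposite side, with 26 reads in FMO5-OE T1 and 9 in Col-0 and a ratio of 2.56 (1.16 to 6.21).

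Clock and tissue genes were set beside these values because photoreceptor transcripts can follow the time of day and the mix of organs. Of 7 measured clock genes 5 lay above 0, with a median of 0.16. CCA1 had a ratio of 1.19 (1.002 to 1.42), PRR7 1.13 (1.06 to 1.21) and PRR5 0.85 (0.62 to 1.17). LHY, under 5 CPM and named after its value was seen, lay on the side opposite to CCA1. It had 15 reads in FMO5-OE T1 and 31 in Col-0, a ratio of 0.43 (0.22 to 0.82). PRR9, LUX and ELF4, also under 5 CPM, had ratios of 1.06, 1.06 and 1.11 with intervals that span 1. All 6 measured green tissue markers lay below 0, with a median of -0.31, and their summed level over all 7 was 29565 CPM in FMO5-OE T1 and 35806 in Col-0. GLK2, a regulator of chloroplast development, had a ratio of 0.72 (0.68 to 0.77). RBCS1A and LHCB1.3 each had a ratio of 0.80, and both have near-identical relatives that can share reads. The 8 root markers had a median of -0.10, with 2 above 0, and summed to 6221 CPM in FMO5-OE T1 and 5823 in Col-0. Most of that sum was PYK10, a root beta-glucosidase, with 5813 CPM in FMO5-OE T1 and 5341 in Col-0 and a ratio of 1.09 (1.08 to 1.10). Without it, a sum added after the values had been seen, the other 7 gave 408 CPM in FMO5-OE T1 and 482 in Col-0. The aquaporin TIP2;3 had a ratio of 0.42 (0.36 to 0.49), IRT1 of 0.66 (0.59 to 0.74), CASP1 of 0.86 (0.78 to 0.95) and SCR of 0.90 (0.82 to 0.98), while COBL9 was at 1.02 (0.84 to 1.23), PHT1;1 at 0.997 (0.93 to 1.07) and SHR at 0.97 (0.84 to 1.12). STM, a meristem homeodomain factor, had a ratio of 0.79 (0.59 to 1.05) and FAMA, a guard cell factor, of 1.04 (0.88 to 1.22). The guard cell markers summed to 32.3 CPM in FMO5-OE T1 and 31.6 in Col-0, and the meristem markers to 9.19 and 11.6 CPM in FMO5-OE T1 and Col-0, with WUS at 0 reads in both. The part of time of day and tissue mix in the CRY1, CHS and ELIP values was not tested. In bulk seedlings, fewer cells of a type and less RNA per cell cannot be told apart.

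**Figure D4:**
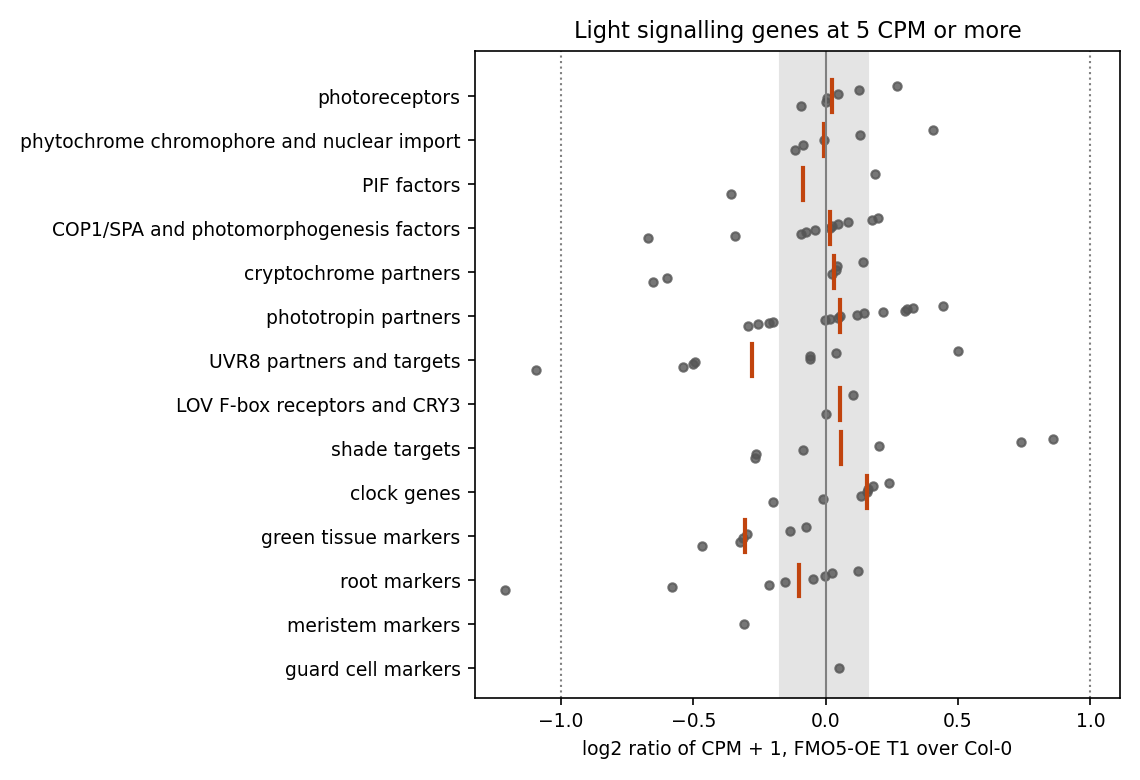
Log2 ratio of CPM + 1, FMO5-OE T1 over Col-0 (x axis), for each gene at 5 CPM or more (points) in the photoreceptor list, the lists of genes that work with them, and the clock and tissue lists (rows), with list medians as bars where 2 or more genes were measured. The grey band runs from -0.17 to 0.16, the quartiles of all nuclear loci. The photoreceptors sit within or near it, all 6 green tissue markers lie below 0, with RCA and PSBO1 inside the band, and ELIP2 and TIP2;3 pass the dotted 2-fold line.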

How the data were processed

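Per the file headers, the authors deposited whole-number counts of unique reads per transcript model for each library, with the model's length, the percent of it covered by reads, and RPKM. Per the submitters' processing notes, TAIR10 was the genome build. The sources used here do not give the aligner, the counter or the strand setting. RPKM recomputed from count, length and total matched the deposited values within 0.5 RPKM in 100% of models. That tolerance says little for models under 1 RPKM, such as those of PHYA (0.813) and PHOT1 (0.562) in FMO5-OE T1. Models with 1 read were covered over a median of 49 bases, taken as the read length.

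Counts were summed over the models of a locus, with absent models as 0, and scaled to CPM with TMM factors (edgeR 4.0.16), 1.03 for FMO5-OE T1 and 0.967 for Col-0. One read was worth 0.0792 CPM in FMO5-OE T1 and 0.0894 CPM in Col-0, and 5 CPM stood for 63.1 and 55.9 reads in FMO5-OE T1 and Col-0. Log2 ratios are of CPM + 1, which understates low genes. Intervals at 95% are exact (Clopper-Pearson for ratios and shares, Poisson for levels) and cover counting error only. Being 2-fold or 1.5-fold apart also required 5 CPM in the higher library. The 1 library per genotype allowed no edgeR or DESeq2 test. Symbols, coordinates and sequences came from RefSeq TAIR10.1, whose annotation held 121 of 132 list names. The other loci are given by ID or annotated symbol.

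The planned named genes were all members, FMO GS-OX5 and, per list, those 2-fold apart and the 3 largest others at 5 CPM. Outside this rule stand RUP2, WRKY36, SIG5, FKF1, LKP2, LHY, PRR9, LUX and ELF4. So do the phototropin partners PMI2, AT1G18810, AT5G67385 and AT1G64500. The tissue markers PYK10, COBL9, PHT1;1, SHR, RCA, PSBO1 and WUS also stand outside it. The members and lists were chosen with earlier results of these data known. Alternatives were DESeq2 1.42.0 size factors, total count CPM, equal nuclear totals, pseudocounts of 0.1 and 5, the model with most reads, deposited RPKM, other minimums and other fold rules. R 4.3.3, Python 3.11.15, numpy 2.4.6, scipy 1.17.1, pandas 2.3.3 and matplotlib 3.10.9 were used.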

Additional observations from a re-analysis of the deposited data

How the results depend on the processing

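No paired analysis was possible because each genotype had 1 library, which also left no replicate to leave out. Of 70 member values under alternatives, 67 stayed within the counting interval. The exceptions were CRY1 with total count CPM (0.36), equal nuclear totals (0.36) and deposited RPKM (0.37). Part of this tally was fixed in advance. All members except CRY2 and PHOT2 have 1 listed model, so taking the model of most reads could not move them. The pseudocounts hardly move genes of high CPM such as CRY1, PHYB and UVR8. The tally is therefore not a measure of robustness. CRY1 stayed inside its interval in 4 of 7 alternatives, but its only listed model could not move it. The pseudocounts of 0.1 and 5 gave 0.270 and 0.265 against 0.269. Among alternatives that change the scaling, only DESeq2 size factors (0.276) kept CRY1 inside its interval. For genes of few reads the interval is wide, as at -0.20 to 1.19 for the log2 ratio of PHOT1. Staying inside it says little about such genes. PHYD, listed at 6 RPKM in both libraries, was 0 with deposited RPKM, and PHOT2 was 0.29 with the model of most reads. No photoreceptor passed the 2-fold rule in any alternative run in CPM, nor the 1.5-fold or 3-fold rule with TMM. The rules were not applied to deposited RPKM. PHYA, CRY2, PHOT1 and PHOT2 were under 5 CPM and could not pass where that minimum held. CRY2 and PHOT1 had CPM ratios of 1.60 and 1.57. With no minimum or 1 CPM, still none of the members was 2-fold apart. FMO GS-OX5 was 3.93 with a pseudocount of 5.

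Total count CPM and equal nuclear totals, which shift all loci alike, gave 136 loci higher and 31 lower, and 134 and 33, against 96 and 45 with TMM. They gave 0.14 and 0.13 for the LOV F-box list and 0.25 and 0.24 for clock genes. Deposited RPKM gave 0.25 for the LOV F-box list, a median of 2 genes, and 0.16 for cryptochrome partners. RPKM carries no TMM factor, and the pseudocount of 1 was added to RPKM in place of CPM. The part of each in these 2 values was not tested. Members counted at 1 CPM or more gave 0.13 for chromophore and import genes, 0.14 for PIF factors and -0.04 for COP1/SPA factors, against -0.01, -0.08 and 0.02 at 5 CPM. The count of nuclear loci 2-fold apart, 141, was 59 (42 higher, 17 lower) with a pseudocount of 5, 77 (56 and 21) at 20 CPM, 734 (440 and 294) with the 1.5-fold rule and 19 (16 and 3) with the 3-fold rule. Levels over start positions found in no other reference transcript gave PHYB 1302, since its annotated second model leaves few such positions. That value is void for PHYB. It depends on the reference models, and the levels of PHYA, CRY2, PHOT1 and PHOT2 it gives were not used.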
